A study of Mus musculus with 6 samples.

Results

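The 33 genes described here are those of glycolysis, of lactate handling and of the cell's response to low oxygen. They were taken from the thymus count table by their gene symbols, and all 33 were found among its 24054 genes. Thymus mRNA was sequenced in 6 libraries. Control animals gave 3 of them, and K5-rtTA:TetO-RANKL animals, called RANKL below, gave the other 3. In the latter, a doxycycline-dependent activator made from the keratin 5 promoter, which is used by basal and medullary epithelial cells, switches on a transgene for the cytokine RANKL. Animals of both groups received doxycycline in food and water, and the controls carried 1 of the transgenes alone. The descriptions disagree on the schedule, with 1 week of doxycycline from 8 weeks of age in one text and 2 weeks from 9 weeks of age in the other. Strain, sex and litter are not stated, and only the differing sample titles speak for 1 animal per library. The p-values below therefore measure the spread between these libraries, and each library holds the RNA of whole thymus.

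Glycolysis breaks glucose down to pyruvate in the cytosol. Glucose transporters bring the sugar in, hexokinases trap it by phosphorylation, and the enzymes that follow split it and recover energy from the fragments. Lactate dehydrogenases interconvert pyruvate and lactate, and monocarboxylate transporters carry lactate across the plasma membrane. The hypoxia-inducible factors HIF-1α and HIF-2α are transcription factors that prolyl hydroxylases mark for destruction while oxygen is plentiful. When oxygen falls they persist and bind short DNA motifs, and many genes of glycolysis are among their targets. In thymus, dividing thymocytes, myeloid cells, fibroblasts and epithelium all run glycolysis, with different isoenzymes.

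The core motif that hypoxia-inducible factors bind is ACGTG or GCGTG. It was searched on both strands, so CACGT and CACGC also count, in RefSeq promoter sequences of GRCm38.p6 that run from 250 bases before to 50 after each start. Promoters of 30 members were matched, 43 sequences in all, and Slc2a3, Epas1 and Ndrg1 had no entry. Either motif was present in 81.4% of these 43 promoters, against 57.3% of 15162 promoters of genes tested here. ACGTG or its complement was in 53.5% of the member promoters and 23.4% of those of tested genes. Median GC content was 61.0% and 59.7%. The 250 bases before the start are shown for 6 members, from the promoter with the lowest coordinate where a gene has several: the pairs of lactate genes that moved in opposite directions, and Pgk1 and Bnip3, which rose. They read 5′ to 3′ on the gene's strand, with every match in capitals; where matches overlap, as in the palindrome CACGTG, they form 1 run.
Slc16a3, chr11:120948817-120949066, plus strand: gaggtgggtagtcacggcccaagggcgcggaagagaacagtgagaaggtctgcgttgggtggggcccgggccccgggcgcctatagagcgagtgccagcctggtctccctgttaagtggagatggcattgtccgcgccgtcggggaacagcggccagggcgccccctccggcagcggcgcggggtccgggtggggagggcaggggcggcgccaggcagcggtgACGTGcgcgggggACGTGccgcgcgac
Slc16a1, chr3:104638414-104638663, plus strand: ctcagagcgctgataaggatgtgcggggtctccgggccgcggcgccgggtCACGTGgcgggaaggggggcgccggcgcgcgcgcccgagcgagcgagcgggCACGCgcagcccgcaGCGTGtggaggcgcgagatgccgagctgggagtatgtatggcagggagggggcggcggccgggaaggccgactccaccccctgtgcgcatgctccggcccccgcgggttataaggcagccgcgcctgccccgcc
Ldha, chr7:46845554-46845803, plus strand: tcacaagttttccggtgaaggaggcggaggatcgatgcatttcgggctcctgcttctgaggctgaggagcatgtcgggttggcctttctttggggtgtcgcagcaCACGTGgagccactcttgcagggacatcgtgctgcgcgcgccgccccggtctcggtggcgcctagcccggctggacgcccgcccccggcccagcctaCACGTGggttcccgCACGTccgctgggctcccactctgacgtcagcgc
Ldhb, chr6:142507958-142508207, minus strand: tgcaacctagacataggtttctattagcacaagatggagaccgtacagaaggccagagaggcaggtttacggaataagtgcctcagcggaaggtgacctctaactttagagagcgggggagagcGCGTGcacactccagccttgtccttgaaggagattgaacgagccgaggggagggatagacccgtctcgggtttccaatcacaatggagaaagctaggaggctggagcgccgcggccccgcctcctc
Pgk1, chrX:106186850-106187099, plus strand: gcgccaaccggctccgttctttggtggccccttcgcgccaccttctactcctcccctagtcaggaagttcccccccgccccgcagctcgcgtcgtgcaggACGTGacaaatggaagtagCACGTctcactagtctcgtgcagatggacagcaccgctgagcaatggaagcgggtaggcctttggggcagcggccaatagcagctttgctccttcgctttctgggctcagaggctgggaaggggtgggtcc
Bnip3, chr7:138909507-138909756, minus strand: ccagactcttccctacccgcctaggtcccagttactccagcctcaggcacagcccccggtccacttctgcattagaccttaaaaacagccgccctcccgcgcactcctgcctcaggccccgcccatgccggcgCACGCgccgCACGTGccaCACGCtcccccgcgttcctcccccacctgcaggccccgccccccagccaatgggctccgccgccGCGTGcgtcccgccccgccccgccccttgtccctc
Slc16a1, which fell, holds 3 such runs in this window and Slc16a3, which rose, holds 2. Ldha holds 3 and Ldhb 1. Counted per gene, either motif was found for 18 of 20 members that rose and 4 of 4 that fell. It was also found for 5 of 6 others, which are Eno1, not tested, and the members not called except Slc2a3. The same count over genes tested was 62.7%, with 53.7% of those called higher and 67.7% of those called lower. A match is a description of letters and not a measured binding site.

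Library totals ran from 18254870 to 25357060 reads. Tnfsf11, the gene of RANKL and the check of the labels, had 7.08 ± 1.58 CPM (reads per 1000000 of the TMM-adjusted library total; mean ± SD, n = 3 per group) in control and 3512 ± 1221 in RANKL. The 18 glycolytic enzymes among the members took 0.376% to 0.4996% of all reads in the control libraries and 0.703% to 0.807% in the RANKL libraries. Among controls, replicate 1 was the highest in 20 of the 33 members and replicate 2 the lowest in 18. In the RANKL group, replicate 2 was the highest in 23.

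Most of the group was more abundant in the RANKL thymus. Of the 33 members, 32 passed the filter on low counts; of these, 22 were higher, 4 lower and 6 not called by edgeR's quasi-likelihood test at an adjusted p under 0.05. Over all 16096 genes tested, 63.4% were called, 33.8% higher and 29.6% lower. Counts for smaller groups of genes below, by role or by cell type, stand against these same shares. Without RANKL replicate 1, the number of lower members was 2. The median log2 fold change was 1.07 for the 32 members and -0.02 for all genes tested. By at least 2-fold, 17 members were higher and 2 lower, against 28.4% and 15.3% of tested genes. The CPM of the groups did not overlap in 30 of the 32, against 70.1% of tested genes. The 2 whose groups overlapped were Slc2a3 and Hk1. In whole tissue, a change in the number of cells of a type and a change in RNA per cell cannot be told apart.

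**Figure D1:**
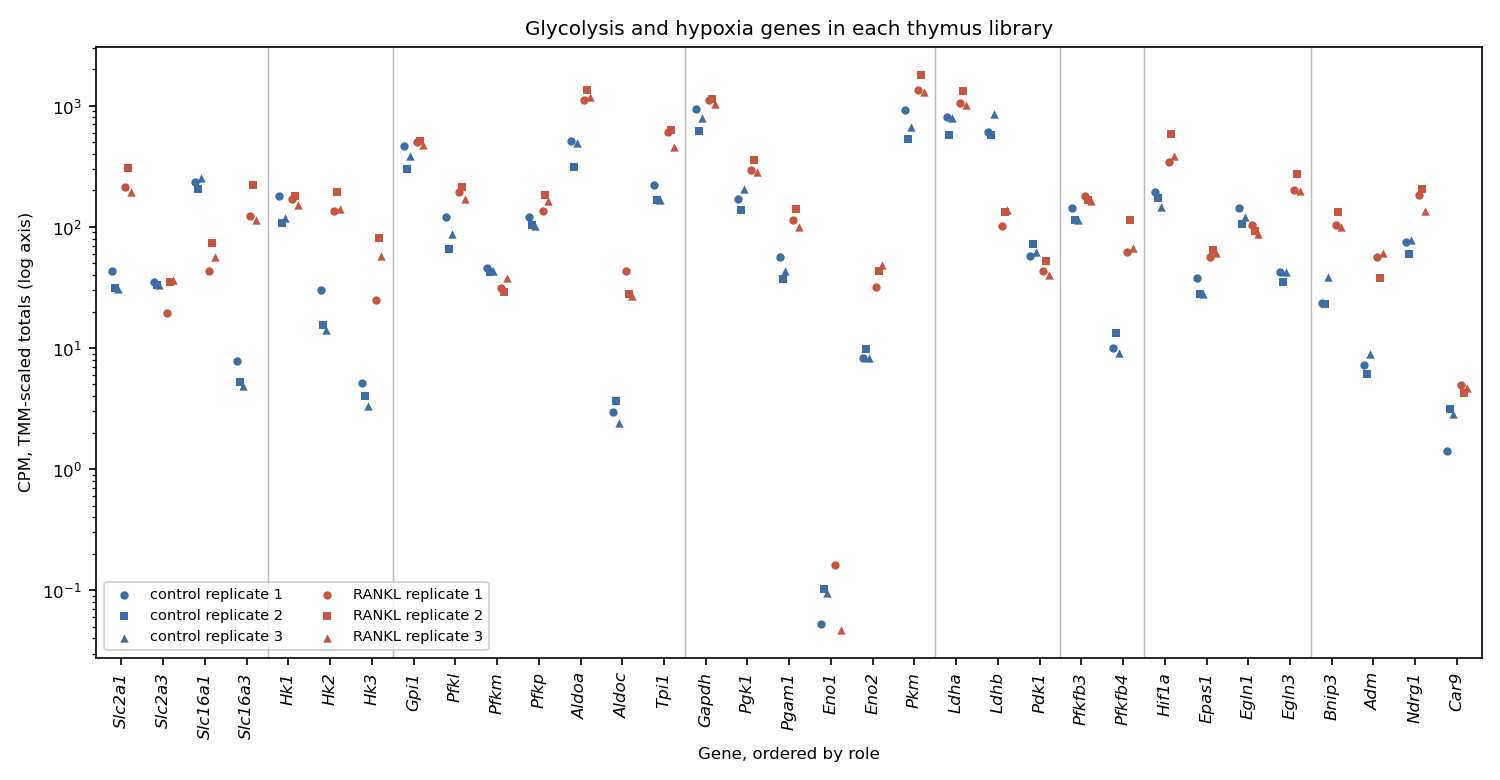
CPM of the 33 genes in each library, on a log axis, with genes ordered by role and vertical lines between roles. Control libraries are blue and RANKL libraries red, with 1 marker shape per replicate; a library with 0 reads has no point. Slc16a3, Hk3 and Aldoc sit far apart between the groups, Ldhb and Slc16a1 are lower in RANKL, and Eno1 is near 0 in every library.

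Of the 4 carriers of glucose and lactate, 2 rose, 1 fell and 1 was not called. The shares over all genes tested were 33.8% higher and 29.6% lower. Slc2a1 (Entrez gene 20525, chromosome 4, 119108745 to 119137330 in GRCm38), the widely used glucose transporter GLUT1, had 42.9, 31.4 and 30.7 CPM in control replicates 1 to 3 and 213, 306 and 193 CPM in RANKL replicates 1 to 3. Every RANKL library was thus above every control, and the log2 fold change was 2.76 ± 0.23 (SE; edgeR adjusted p = 1.36e-05). Slc2a3, the high-affinity glucose transporter GLUT3, had 35.3, 33.1 and 32.8 CPM in control and 19.4, 35.1 and 36.4 in RANKL. Its groups overlapped, only RANKL replicate 1 being low, and it was not called (-0.15 ± 0.24, adjusted p = 0.592; 0.12 without RANKL replicate 1).

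The lactate carriers moved in opposite directions. Slc16a3 (Entrez gene 80879, chromosome 11, 120948484 to 120959000), the monocarboxylate transporter MCT4 of cells that export lactate, rose from 7.80, 5.26 and 4.83 CPM to 122, 220 and 113 CPM. The lowest RANKL library was far above the highest control, and the log2 fold change of 4.67 ± 0.33 (adjusted p = 6.92e-06) was the highest of any member. Slc16a1 (Entrez gene 20501, chromosome 3, 104638664 to 104658462), the carrier MCT1, fell from 234, 206 and 255 CPM to 43.4, 73.5 and 56.55 CPM, with no overlap and a log2 fold change of -2.0 ± 0.21 (adjusted p = 4.42e-05). Summed over the pair, levels were 237.6 ± 24.4 CPM in control and 209.7 ± 72.8 in RANKL, a difference within the spread (exact permutation test, two-sided, p = 0.6; adjusted over 10 isoenzyme families 0.667). The share of the pair's reads that came from Slc16a3 went from 2.52% ± 0.68 to 71.8% ± 4.50. With 3 libraries a group, the smallest two-sided p that an exact permutation test allows is 0.1. This share reached it (0.117 adjusted over 14 shares).

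Among hexokinases, the inducible and the myeloid forms rose, while the constitutive form was not called. Hk1 had 134.9 ± 39.2 CPM in control and 166.9 ± 15.2 in RANKL, and its groups overlapped because control replicate 1 was high, at 179.7 (0.31 ± 0.21, adjusted p = 0.224; called without control replicate 1, at 0.55 with adjusted p = 0.0233). Hk2 (Entrez gene 15277, chromosome 6, 82725025 to 82774454), the form that glucose demand and hypoxia induce, rose from 30.3, 15.5 and 14.0 CPM to 136, 194 and 141 CPM (2.98 ± 0.31, adjusted p = 4e-05). Hk3 (Entrez gene 212032, chromosome 13, 55005985 to 55021475), a form of myeloid cells, rose from 5.17, 4.02 and 3.35 CPM to 24.8, 80.3 and 56.9 CPM (3.69 ± 0.41, adjusted p = 5.76e-05).

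Neither rising gene overlapped between groups, as was also so for 70.1% of all genes tested. RANKL replicate 1 was well below the other RANKL libraries for Hk3. Of all hexokinase reads, Hk1 took 85.1% ± 1.89 in control and 44.8% ± 6.11 in RANKL. Hk2 went from 12.2% ± 1.87 to 41.4% ± 1.2 and Hk3 from 2.68% ± 0.43 to 13.8% ± 5.53, each at the smallest p of the exact permutation test, 0.1. Myeloid markers stand beside Hk3: 9 of 9 neutrophil genes and 11 of 11 macrophage genes were called higher. Their summed CPM was between 18.01 and 49.98 in control and between 1940 and 4506 in RANKL for neutrophils, and between 541 and 738 against 2779 and 3983 for macrophages. None of these markers was at 0 in a whole group, and their part in the Hk3 result was not tested.

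In the upper part of glycolysis, down to the triose phosphates, 5 of 7 genes rose, 1 fell and 1 was not called. Among all genes tested, 33.8% were higher and 29.6% lower. Aldoa (Entrez gene 11674, chromosome 7, 126795234 to 126800994), the main aldolase, which splits the phosphorylated sugar, rose from 510, 313 and 497 CPM to 1124, 1338 and 1191 CPM (1.47 ± 0.22, adjusted p = 0.000343). Aldoc (Entrez gene 11676, chromosome 11, 78323073 to 78327781), known as the brain aldolase, rose from 2.95, 3.66 and 2.39 CPM to 43.2, 27.8 and 26.9 CPM (3.44 ± 0.28, adjusted p = 1.24e-05). Even so, Aldoc took 2.65% ± 0.91 of aldolase reads in RANKL and 0.737% ± 0.367 in control. Tpi1, triosephosphate isomerase, rose from 185.0 ± 31.7 to 562 ± 93.85 CPM.

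Gpi1, glucose phosphate isomerase, had 382.6 ± 81.0 CPM in control and 497 ± 23.2 in RANKL and was not called (0.38 ± 0.19, adjusted p = 0.107). It passed without control replicate 1 (adjusted p = 0.0475). The phosphofructokinases catalyse the committed step, and their forms differed. Pfkl, the liver form, rose from 91.1 ± 28.3 to 192.0 ± 22.0 CPM, and Pfkp, the platelet form, from 108.7 ± 9.97 to 161.4 ± 25.2. Pfkm, the muscle form, was lower, 43.9 ± 1.86 against 32.7 ± 4.86 CPM (-0.43 ± 0.17, adjusted p = 0.0477). Pfkm was no longer called when control replicate 1, 2 or 3 or RANKL replicate 1 or 2 was left out (adjusted p = 0.0582 to 0.166), nor was Pfkp when control replicate 2 was (0.0607). With a block for title numbers, which sets libraries with titles in the same number range together, neither was called (0.0767 for Pfkm and 0.0686 for Pfkp). Control replicate 2 is alone in its range, so in that fit it adds nothing to the RANKL difference. The block is therefore not a check separate from leaving control replicate 2 out, here or below. Pfkm took 18.2% ± 2.06 of phosphofructokinase reads in control and 8.55% ± 1.75 in RANKL, with no overlap (exact permutation p = 0.1), whereas the share of Pfkp overlapped between groups (44.96% ± 3.72 and 41.7% ± 3.60, exact permutation p = 0.5).

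In the lower part, 4 of 5 tested genes rose and 1 was not called, against 33.8% higher over all genes tested. Pkm, pyruvate kinase, whose splice forms are not separated by counts per gene, rose from 925, 533 and 663 CPM to 1342, 1802 and 1307 CPM (1.07 ± 0.24, adjusted p = 0.00353). Pgk1, phosphoglycerate kinase, rose from 170.9 ± 34.1 to 310.2 ± 38.4 CPM and Pgam1, phosphoglycerate mutase, from 45.6 ± 10.1 to 118.0 ± 20.3. Eno2, known as the neuronal enolase, rose from 8.28, 9.84 and 8.27 CPM to 32.1, 43.1 and 48.1 CPM (2.22 ± 0.21, adjusted p = 2.52e-05). No control library of these 4 genes reached the lowest RANKL library, and 70.1% of all genes tested did not overlap between groups.

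Gapdh, glyceraldehyde phosphate dehydrogenase, often used as a reference gene, had 937, 624 and 794.5 CPM in control and 1119, 1140 and 1030 CPM in RANKL. It did not overlap between groups and was not called (0.48 ± 0.19, adjusted p = 0.052). The call sat at the threshold: it passed under 8 of 18 alternative settings, among them without control replicate 1 (0.0335), and the log2 fold change stayed between 0.313 and 0.605.

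Eno1, the main enolase of most tissues, was the member that failed the filter, with 1, 2 and 2 reads in the control libraries and 3, 0 and 1 in RANKL. A near-identical gene, Eno1b, held 1764, 838 and 1207 reads in control and 2405, 3367 and 2286 in RANKL (64.6 ± 25.6 and 124.7 ± 15.2 CPM; log2 fold change 0.95 ± 0.26, adjusted p = 0.00991). Of the 50-base windows of the longest Eno1 coding transcript in GENCODE M21, 70.5% occur letter for letter in Eno1b. How reads from shared sequence were assigned between these genes is not known, and no share or fold is given for Eno1. Part of the Eno1 transcript is not shared, and why Eno1 held so few reads was not tested. Other members also share windows with transcripts of other genes. The highest were 82.5% for Gapdh, 68.0% for Pgk1, 41.5% for Pgam1, 34.4% for Pkm and 27.0% for Ldhb. Bnip3 shared 21.9%, Gpi1 19.3%, Ldha 16.6%, Aldoa 13.5% and Tpi1 7.51%. Lower still were Hif1a (2.18%), Pfkfb3 (0.61%), Pfkl (0.0543%) and Eno2 (0.0364%). Their absolute levels are uncertain for that reason. Slc2a1, Slc16a1, Slc16a3, Hk1, Hk2, Hk3 and Egln3 shared none.

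The testis copies and other named relatives held few reads. Aldoart1 had 0 to 2 reads in control libraries and 5 to 8 in RANKL, Aldoart2 1 to 4 and Pgk2 0 or 1. Gapdhs, the sperm form, had 5.31 ± 1.03 CPM in control and 3.22 ± 0.473 in RANKL and was not called, and neither was Pgam2, the muscle form. Ldhc, the testis lactate dehydrogenase, rose from 0.120 ± 0.134 to 2.62 ± 1.33 CPM (4.39 ± 0.77, adjusted p = 0.000822), with 5, 0 and 2 reads in control and 44, 35 and 86 in RANKL.

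At the end of the pathway, the lactate dehydrogenase subunits parted. Ldhb (Entrez gene 16832, chromosome 6, 142490249 to 142507957), the heart-type subunit, fell from 608, 575 and 855 CPM to 101, 131 and 137 CPM. No libraries overlapped, and the log2 fold change of -2.46 ± 0.22 (adjusted p = 1.86e-05) was the lowest of any member. Ldha (Entrez gene 16828, chromosome 7, 46842274 to 46855627), the muscle-type subunit, went from 802, 574 and 795.5 CPM to 1059, 1322 and 1012 CPM (0.64 ± 0.20, adjusted p = 0.019). Ldha missed the threshold when control replicate 2 (0.0744) or RANKL replicate 2 (0.0654) was omitted, and when title numbers were used as a block (0.0975).

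Ldhb made up 48.3% ± 4.59 of lactate dehydrogenase reads in control and 9.89% ± 1.76 in RANKL (exact permutation p = 0.1). The summed level of the pair was 1403 ± 251 CPM in control and 1254 ± 172 in RANKL, a difference within the spread (exact permutation p = 0.7). Pdk1, the mitochondrial kinase that inhibits pyruvate dehydrogenase and is also a known HIF target, had 57.2, 71.6 and 62.2 CPM in control and 42.9, 52.7 and 40.3 in RANKL (-0.49 ± 0.17, adjusted p = 0.0288). Omitting control replicate 2 (0.09), RANKL replicate 1 (0.118) or RANKL replicate 3 (0.151) ended the call of Pdk1, as did the title block (0.0799). Thymocyte genes fell beside Ldhb and Slc16a1: 12 of 12 double-positive thymocyte markers were called lower, with a summed 11790 to 13600 CPM in control and 308 to 1220 in RANKL, and no marker was at 0 in a whole group. All 12 cell cycle markers were lower too, from 3052 to 3938 CPM in sum to 778 to 928. The part of these cells in the fall of Ldhb and Slc16a1 was not tested.

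PFKFB enzymes set the level of the sugar bisphosphate that stimulates phosphofructokinase. Pfkfb4 (Entrez gene 270198, chromosome 9, 108988272 to 109032236) rose from 10.02, 13.2 and 9.08 CPM to 62.4, 115 and 66.6 CPM (2.92 ± 0.28, adjusted p = 2.48e-05), and its groups lay far apart. Pfkfb3, the more abundant one in reads, went from 143, 113 and 114 CPM to 179, 167 and 164 CPM (0.47 ± 0.16, adjusted p = 0.026). Omitting control replicate 2 (0.106) or 3 (0.0705) ended the call of Pfkfb3, as did the title block (0.0505). The Pfkfb4 share of the pair's reads was 8.14% ± 2.05 in control and 31.8% ± 7.85 in RANKL (exact permutation p = 0.1).

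Of the oxygen-sensing genes, 3 of 4 rose, against 33.8% higher over all genes tested. Hif1a (Entrez gene 15251, chromosome 12, 73901324 to 73947554), the inducible subunit of HIF-1, rose from 196, 172 and 145 CPM to 345, 589 and 381 CPM (1.36 ± 0.23, adjusted p = 0.000706). Epas1, which encodes HIF-2α and is known from endothelium, rose from 31.0 ± 5.76 to 60.3 ± 3.93 CPM. The share of Epas1 in the pair's reads overlapped between groups (15.3% ± 1.28 and 12.5% ± 2.35, exact permutation p = 0.2). HIF activity is set mostly at the level of protein, which these data do not measure.

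Egln3 (Entrez gene 112407, chromosome 12, 54178981 to 54203874), the prolyl hydroxylase PHD3, itself a known HIF target, rose from 42.2, 35.0 and 42.4 CPM to 203, 272.5 and 196 CPM (2.49 ± 0.19, adjusted p = 9.4e-06). Egln1, the main oxygen sensor PHD2, had 143.5, 106.4 and 121.5 CPM in control and 103.4, 93.0 and 86.5 in RANKL. It was not called (-0.39 ± 0.17, adjusted p = 0.0607), and it was called lower without control replicate 2 (0.0368) or with the title block (0.0387). Egln3 accounted for 24.4% ± 1.60 of the pair's reads in control and 70.1% ± 4.18 in RANKL (exact permutation p = 0.1).

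The last 4 members are HIF targets outside glycolysis and oxygen sensing. Each had a higher mean in RANKL, and 3 were called, against 33.8% called higher over all genes tested. Adm (Entrez gene 11535, chromosome 7, 110627657 to 110629820), the vasodilator peptide adrenomedullin, rose from 7.17, 6.08 and 8.84 CPM to 56.9, 37.9 and 60.8 CPM (2.81 ± 0.24, adjusted p = 1.62e-05). Bnip3 (Entrez gene 12176, chromosome 7, 138890836 to 138909506), a receptor for the removal of mitochondria, rose from 23.6, 22.9 and 38.3 CPM to 104.5, 133 and 100.2 CPM (1.995 ± 0.23, adjusted p = 7.62e-05). Ndrg1, a stress-responsive protein of cell differentiation, rose from 71.1 ± 9.55 to 174.5 ± 35.3 CPM. In each of the 3, every RANKL library was above every control. Groups did not overlap in 70.1% of all genes tested.

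Car9, the carbonic anhydrase often used as a hypoxia marker, stayed low. It had 1.42, 3.14 and 2.87 CPM in control and 4.95, 4.23 and 4.71 in RANKL, without overlap, and was not called (0.90 ± 0.36, adjusted p = 0.0513). Like Gapdh it lay at the threshold, and 6 of 18 alternatives called it, among them the title block (0.0476).

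**Figure D2:**
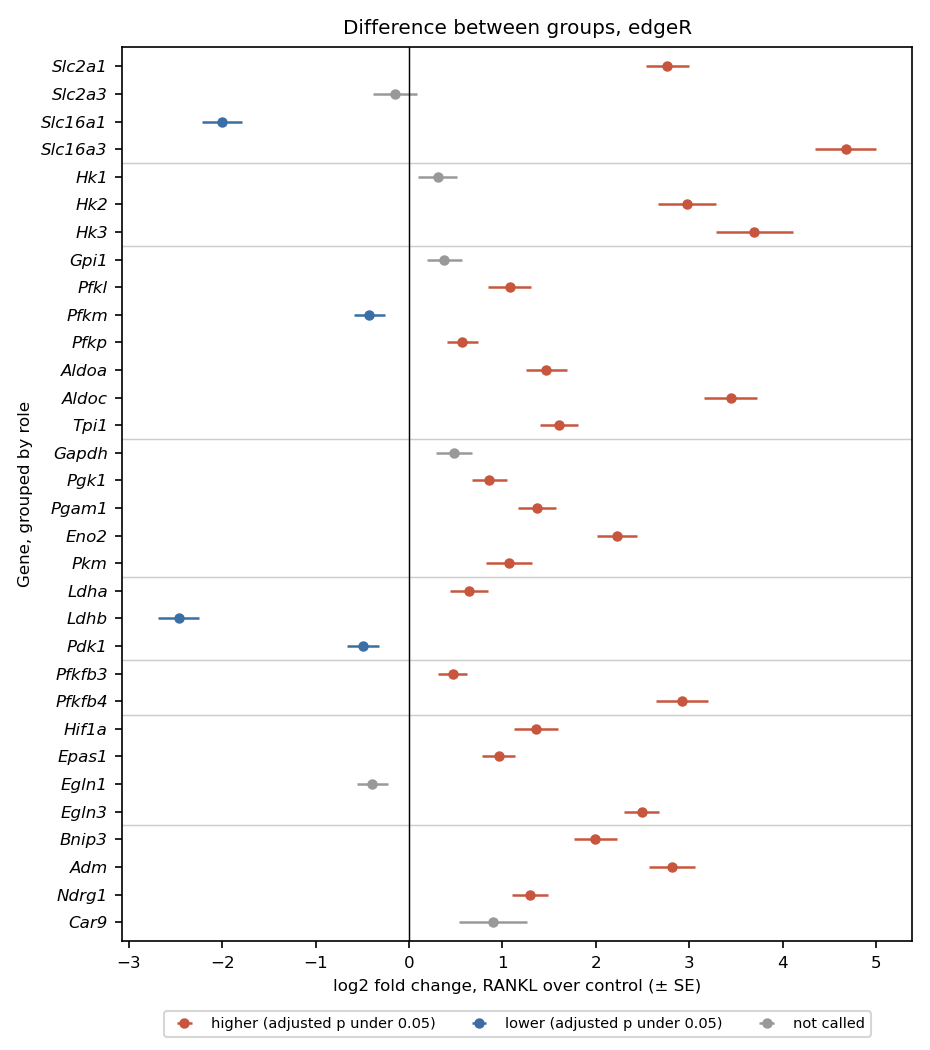
Log2 fold change of each tested member, RANKL over control, with its standard error; red was called higher, blue lower and grey not called by edgeR at an adjusted p under 0.05, and horizontal lines separate roles. The values run from -2.46 for Ldhb to 4.67 for Slc16a3, and partners within a family (Slc16a1 and Slc16a3, Ldha and Ldhb, Egln1 and Egln3) lie far apart.

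The make-up of isoenzyme families also differed between the groups. The 14 shares were computed within 10 families, and 12 did not overlap between groups, while Pfkp and Epas1 did. The enolase share is among the 12 and is not read, for the reason given with Eno1. In CPM, a different measure, 70.1% of all genes tested did not overlap. Shares within a family depend on each other and are not separate results. Besides those above, Slc2a3 went from 49.4% ± 3.68 of glucose transporter reads to 11.5% ± 3.91, and Pfkl from 36.8% ± 5.67 of phosphofructokinase reads to 49.8% ± 4.12. Summed over a family, hexokinase reads went from 159.0 ± 48.8 to 377.8 ± 67.0 CPM and glucose transporter reads from 68.7 ± 8.18 to 267.6 ± 63.7, both at the smallest exact permutation p of 0.1 (0.125 adjusted over 10 families). No share or sum passed an adjusted 0.05, which the design cannot reach.

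**Figure D3:**
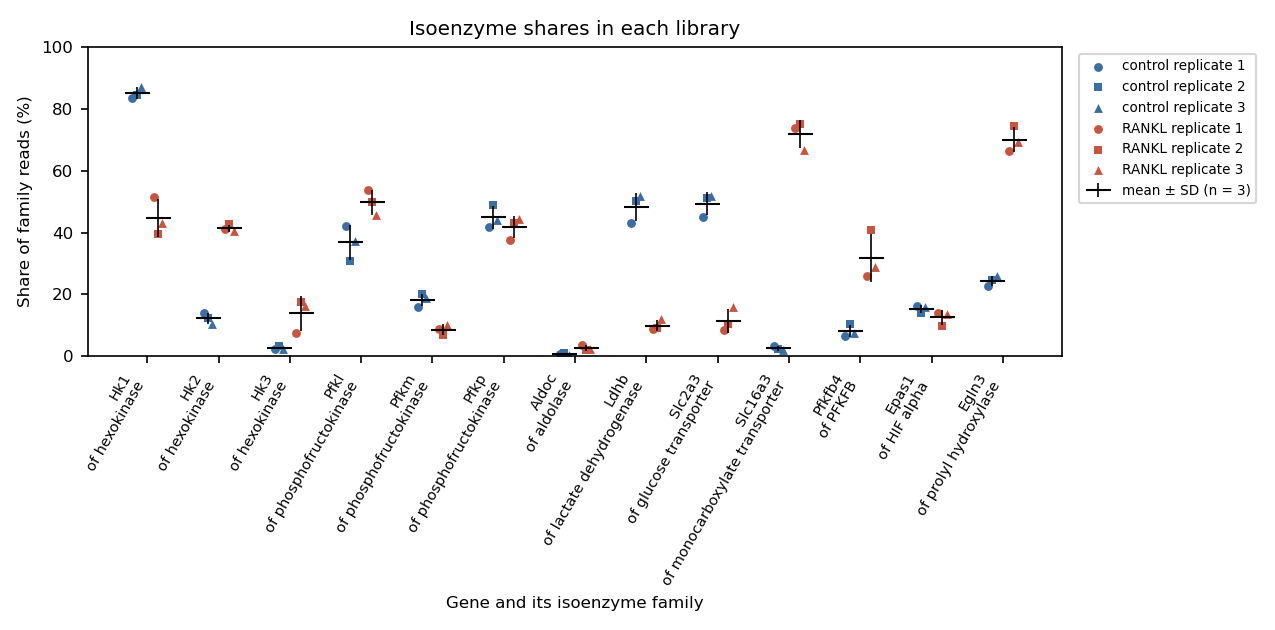
Percent of the reads of an isoenzyme family that came from the named gene, in each library, with black bars for the mean ± SD (n = 3). Control libraries are blue and RANKL libraries red. The share of Slc16a3 is 1.86% to 3.22% in control and 66.7% to 75.0% in RANKL, while those of Pfkp and Epas1 overlap.

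Levels can be compared between genes only per length, here as CPM per kilobase of exon. On that scale the most abundant members in control were Gapdh (525.2 ± 104.7), Ldhb (521 ± 117), Ldha (382 ± 68.5), Pkm (272 ± 76.7) and Aldoa (171.5 ± 43.0). Gapdh and Ldhb did not differ beyond their spread. In RANKL the order was Gapdh (733 ± 39.0), Ldha (597 ± 88.05), Pkm (571 ± 106) and Aldoa (475 ± 42.6), with Ldha and Pkm within each other's spread. Ldhb went from place 2 to place 8 of 33, at 94.5 ± 14.8, and Slc16a1 from place 9 to place 26. Egln3 went from place 19 to 9 and Slc2a1 from 22 to 11. Shared sequence bears on these levels for Gapdh, Pkm and Ldhb most, and also for Ldha and Aldoa, as given above.

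The rest of the pathway was read from lists of other genes. Of 31 further genes of glycolysis, gluconeogenesis and pyruvate use, 14 were higher and 6 lower, against 33.8% and 29.6% of all genes tested. The median log2 fold change of these 31 genes was 0.32. Those with the smallest p were Slc2a6, a glucose transporter (6.14 ± 1.99 to 36.7 ± 13.3 CPM), Hkdc1, a hexokinase-like enzyme (0.0997 ± 0.0454 to 3.06 ± 1.36), Pklr, the pyruvate kinase of liver and red cells (0.379 ± 0.245 to 3.10 ± 0.55), and Pck2, a mitochondrial enzyme of gluconeogenesis (10.2 ± 1.305 to 24.05 ± 3.52). All of these rose, though Hkdc1 had only 1, 2 and 3 reads in the control libraries, no more than the floor of 3 reads. Pklr had 12, 7 and 3 reads there. The 6 that fell, named after their values were seen, were Mpc2, Pdha1, Pdk2, Pdhb, Pdp1 and Bpgm. Their log2 fold changes were -0.935, -0.872, -0.683, -0.573, -0.573 and -0.496 in that order. The count of higher genes was 9 without control replicate 2, and that of lower genes was 3 without control replicate 3, RANKL replicate 2 or RANKL replicate 3.

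Of 34 other hypoxia response genes, 21 were higher and 5 lower, against 33.8% and 29.6% of all genes tested. The median of these 34 genes was 1.04. Among those with the smallest p were Bhlhe40, a transcriptional repressor (25.7 ± 5.25 to 375.5 ± 101.5 CPM), Hmox1, heme oxygenase (21.1 ± 3.96 to 174.5 ± 26.8), and Lox, the collagen crosslinker (7.585 ± 1.86 to 191.2 ± 71.45), and all rose. The 5 that fell, named after their values were seen, were Hif3a, a HIF subunit (12.1 ± 1.13 to 1.30 ± 0.55 CPM), Kdm3a, Hif1an, Egln2 and Bnip3l.

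Further lists held the pathways that branch from or follow glycolysis. Of 15 pentose phosphate and glycogen genes, 2 were higher and 3 lower, against 33.8% and 29.6% of all genes tested. The median of these 15 genes was -0.10. Pygl, liver glycogen phosphorylase, rose from 47.0 ± 15.95 to 126.1 ± 30.4 CPM and G6pdx, the entry enzyme of the pentose pathway, from 73.9 ± 17.1 to 128.8 ± 10.2. Rpe and Rpia, which interconvert its sugars, fell to 38.2 ± 1.00 and 39.5 ± 1.98 CPM from 61.2 ± 3.64 and 64.1 ± 8.27. The third that fell was Gsk3b, a kinase that inhibits glycogen synthase, named after its values were seen. Without control replicate 3, 4 genes of the list were higher.

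Of 16 genes of the citric acid cycle, none was higher and 5 were lower by edgeR, with a median of -0.33. Over all genes tested, 33.8% were higher and 29.6% lower, so the count of lower genes is near the share over all genes. No gene of the cycle was higher at an unadjusted p under 0.05, nor by DESeq2 or limma-voom. Idh3b and Idh3g, subunits of isocitrate dehydrogenase, Sdhb, of succinate dehydrogenase, and Fh1, fumarase, fell, with log2 fold changes of -0.64 ± 0.18, -0.57 ± 0.16, -0.57 ± 0.17 and -0.52 ± 0.16. The fifth was Sdha, also of succinate dehydrogenase, named after its values were seen. The count of lower genes was 8 without control replicate 2, 3 without RANKL replicate 1 or RANKL replicate 2, and 2 without RANKL replicate 3, and it was 0 against a 1.5-fold change. No test of the difference between these lists and the members was made.

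**Figure D4:**
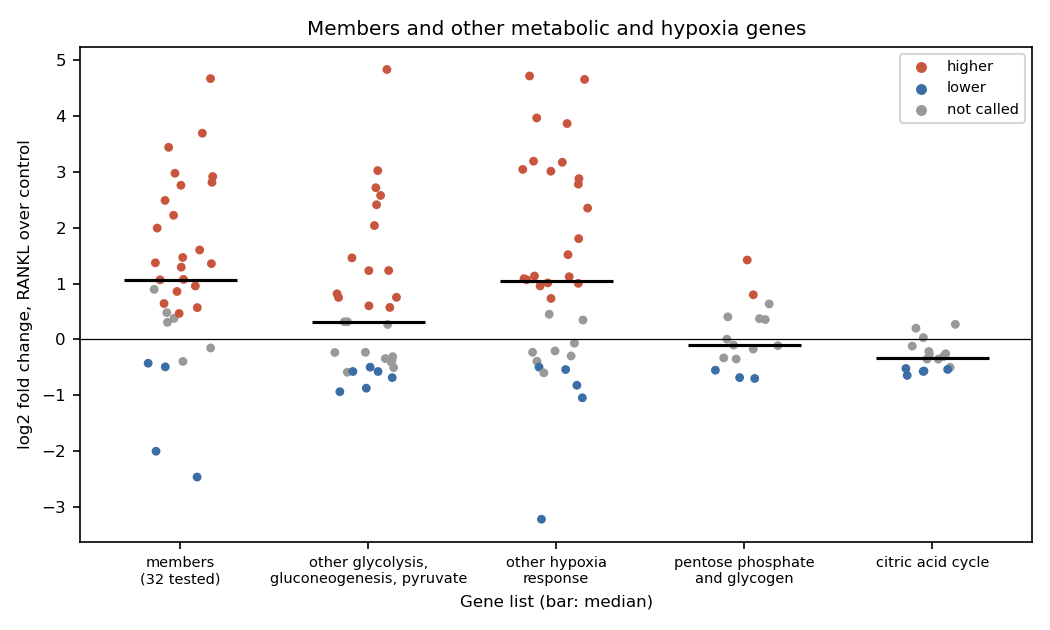
Log2 fold change, RANKL over control, of every tested gene in the member list and in 4 further lists, with a black bar at the median; red was called higher, blue lower and grey not called by edgeR. Medians are 1.07 for the members, 0.32, 1.04, -0.10 and -0.33 for the other lists from left to right.

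Markers of further cell types also differed between the groups. Summed fibroblast markers (8 of 8 called higher) went from 470 to 680 CPM in control to 4887, 6831 and 10070 in RANKL, of which the highest was replicate 2. Basal and medullary epithelium markers (10 of 10 higher) went from 1280 to 1568 CPM to 6515 to 8128, and cornified keratinocyte markers (9 of 9 higher) from 48.55 to 75.3 CPM to 1629 to 4135. RANKL replicate 2 was the highest library in each of these sums, in the neutrophil and macrophage sums, and in 23 of 33 members. Endothelial markers, 6 of 8 higher, went from 214.4 to 254.5 CPM in sum to 289.5 to 407.5. Among red cell markers, 4 globin genes had 0 reads in every library, though Alas2 had 55 to 582 reads. Why the globin genes held no reads was not tested. Of the other 3 red cell markers, edgeR tested Alas2 and Slc4a1 and called neither (unadjusted p = 0.196 and 0.18). What part each cell type has in the values of the members was not tested.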

How the data were processed

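The authors deposited raw counts of reads per gene for whole thymus, 1 column per library. Per the labels' protocols, stranded mRNA libraries were made from 250 ng of RNA; per the submitters' processing notes, STAR and mm10 were used. The sources used here do not give the STAR version, counting tool, strand setting or annotation. Groups come from the genotype labels, and replicates are numbered in accession order and pair nothing.

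Genes kept by filterByExpr were scaled by TMM and compared by edgeR 4.0.16's quasi-likelihood test with robust estimation (R 4.3.3), two-sided, adjusted by Benjamini-Hochberg over 16096 genes. Standard errors derive from the F statistic. A floor of 3 reads was 0.122 to 0.161 CPM, which covers counting error only. Alternatives used limma 3.58.1 and DESeq2 1.42.0. In simulated counts with 200 genes changed, of 16094 genes tested, 72% of 2-fold and 8% of 1.5-fold changes were recovered, and 7 of 147 calls were false. The simulation gave every gene the same dispersion, the spread between libraries. It also changed few genes, whereas 63.4% of genes tested were called in the data. Its rates therefore need not hold for this comparison. Exon lengths and shared windows came from GENCODE M21 (GRCm38), promoters and coordinates from RefSeq (GRCm38.p6).

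The members and lists were chosen with earlier results of these data known. All members are named, with the 4 genes of smallest p in each other list, listed copies and Tnfsf11. For 1 gene that this rule selects, the result is not reported here. Family totals, sequence sharing and the motif search were chosen after seeing the data. Tigar and Adgre1 were matched by older symbols; Flg and Ly6g were not found. Figures used matplotlib 3.10.9.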

Additional observations from a re-analysis of the deposited data

How the results depend on the processing

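Of 26 called members, 20 were called under each of 18 alternatives; the others were Pfkm, Pfkp, Pgk1, Ldha, Pdk1 and Pfkfb3. Pgk1 missed the threshold only against a 1.5-fold change (0.0625). No tested member changed direction except Slc2a3, which ran from -0.27 to 0.12 when 1 library was left out. The number of members called lower was 2 in place of 4 with upper-quartile factors, against a 1.5-fold change, at a threshold of 0.01 and without RANKL replicate 1; the cause was not tested. Leaving out 1 library gave 2 to 3 lower members, 19 to 25 higher members and a member median of 0.98 to 1.30. Over all genes, 2654 were lower against a 1.5-fold change and 4765 in the main test. Upper-quartile factors moved the median of all genes from -0.02 to 0.08 and the member median to 1.18. Title numbers used as a block ended the calls of Ldha, Pfkp, Pfkfb3, Pfkm and Pdk1 and added Car9 and Egln1, for 20 higher and 3 lower members. Control replicate 2 is alone in its number range, so this fit is close to leaving that library out. The labels give no replicate numbers, so no fit paired libraries by replicate. Per kilobase, the difference in share was 24.96 points for Hk2, -43.81 for Ldhb and -12.01 for Pfkm, against 29.2, -38.4 and -9.68 by reads. A run without the 45S ribosomal RNA precursor, added after seeing the data, gave 23 higher and 3 lower members. Car9 had 27 to 104 reads in a library and every other tested member at least 50, and with 3 libraries a group no share or total could reach an adjusted 0.05.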
